A study of Mus musculus with 4 samples.

Results

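The RUNX family of transcription factors and their shared partner were followed in lung cells of mice with bleomycin-induced pulmonary fibrosis. The members are the 4 listed genes Runx1, Runx2, Runx3 and Cbfb, out of 32286 genes in the files, of which 28087 had at least 1 unique molecular identifier (UMI) in the cells analysed. Single-cell RNA-seq (scRNA-seq) was made from 2 WT and 2 Tubb3-/- mice, 14 days after 0.8 U/kg of bleomycin was given into the trachea. The Tubb3-/- mice are homozygous for a Cre gene knocked into Tubb3, the gene of β-III tubulin, so that every cell of the body lacks it and also carries Cre, and the WT mice are their littermates. All mice were 8 to 11 weeks old, of both sexes, and all received bleomycin, so that the uninjured lung was not measured. Each mouse gave a library of whole lung cells and a library enriched for mural cells, the contractile cells and pericytes that wrap blood vessels, and the 4 mice of each kind were tagged and pooled.

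RUNX proteins bind DNA through a conserved domain, and the core binding factor β encoded by Cbfb, which does not bind DNA itself, joins them as a heterodimer and strengthens the binding. RUNX1 is required for the formation of blood stem cells and acts in most blood lineages, RUNX2 is the master regulator of bone-forming cells, and RUNX3 is known for its role in cytotoxic T cells, natural killer (NK) cells and sensory neurons. In fibrotic lungs Runx1 is used, together with the secreted protein gene Cthrc1, to mark the collagen-producing fibroblasts that arise after injury.

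In mm10 (GRCm38, annotation GENCODE vM21), Runx1 (ENSMUSG00000022952) lies on chromosome 16 at 92601466 to 92826149 on the minus strand. Runx2 (ENSMUSG00000039153) lies on chromosome 17 at 44495987 to 44814797 on the minus strand, Runx3 (ENSMUSG00000070691) on chromosome 4 at 135120652 to 135177990 on the plus strand, and Cbfb (ENSMUSG00000031885) on chromosome 8 at 105170674 to 105217989 on the plus strand. Exons of Runx1 and Runx2 overlap those of antisense genes (Gm26626 and Runx2os1), and the use of strand in counting is not stated, so that these counts are uncertain to that extent. The 3 Runx genes share a sequence near their first transcription start site, which is shown because it sets them apart from Cbfb. The RefSeq promoter table (GRCm38.p6) holds windows of 300 bases around start sites, 2 each for Runx1 and Runx3 and 1 each for Runx2 and Cbfb. In each Runx gene the window farthest upstream held the 7-base motif AACCACA, which contains the core that RUNX proteins bind, as a pair whose first bases lie 8 bases apart, and that of Runx2 held 1 more. The 30 bases around the pair are given 5′ to 3′ on the strand of the gene, with the motif in capitals, from chr16:92826026-92826055, chr17:44814584-44814613 and chr4:135120502-135120531.
Runx1: tcataaacAACCACAgAACCACAagttggg
Runx2: tcacaaacAACCACAgAACCACAagtgcgg
Runx3: ggtccctcAACCACAgAACCACAaggccag
The first base of the pair lies 27 bases after the start site in Runx1, 22 bases after it in Runx2 and 135 bases before it in Runx3. The motif was searched on both strands. The second windows of Runx1 and Runx3 and the window of Cbfb held no match to these letters. Of all 32851 windows in the table, 1731 (5.27%) held the motif on either strand, and 5 (0.0152%) held such a pair on 1 strand. The other 2 of these 5 belong to Gm16225, also on chromosome 4, and Olfr24. The spacing was read off the members' windows before it was counted in all windows, so that the count is a description.

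The 8 libraries held 32121 cells, of which 30083 were analysed after limits on genes, mitochondrial UMIs and doublets, at a median of 9186 to 16299 gene UMIs per cell and library. Tubb3 itself stood at 0.868 to 5.49 CPM (UMIs of the gene per 1000000 UMIs of all genes) in the WT libraries and at 0.262 to 0.789 CPM in those of Tubb3-/- mice. Counts of Xist and Ddx3y marked mouse 1 of both genotypes as male and mouse 2 as female. No cell barcode was shared between mice of a pool, and 22 barcodes occurred in both pools of the same mouse. Cells were placed in a lineage when they held at least 1 UMI of its gate gene and of no other lineage's, namely Ptprc (immune), Cdh5 (endothelial), Epcam (epithelial), Msln (mesothelial), Higd1b or Myh11 (mural) or Pdgfra (fibroblast). This gave 15592 cells (51.8%), while 13731 cells (45.6%) met several gates and were dropped and 760 (2.53%) met none. Of the 39 defining markers of the 6 lineages, 38 had their highest mean level in their own lineage, and Dcn was highest in mesothelial cells. The 39 include the gate genes, whose place was fixed by the gates, so that only the other markers bear on the gating. UMIs of both libraries were summed per mouse and lineage, and the mouse is the replicate. A sum cannot tell more cells with a transcript from more transcripts per cell.

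Immune cells held the highest level of all 3 Runx genes. Across lineages the 3 differed in where they came next. Runx1 was also found in epithelial cells and fibroblasts, Runx2 in fibroblasts, and Runx3 hardly outside immune cells, while Cbfb was present throughout. Each lineage was compared with the mean of the other 5 over 24 sums (6 lineages in 4 mice) with edgeR's quasi-likelihood test, the mouse as a block and Benjamini-Hochberg adjustment over 16346 genes. All 4 members passed the filter on low counts in this fit, Runx3 through the immune sums. In immune cells Runx1, Runx2 and Cbfb were called higher at an adjusted p under 0.05, where 75.1% of genes tested were called in either direction.

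**Figure D1:**
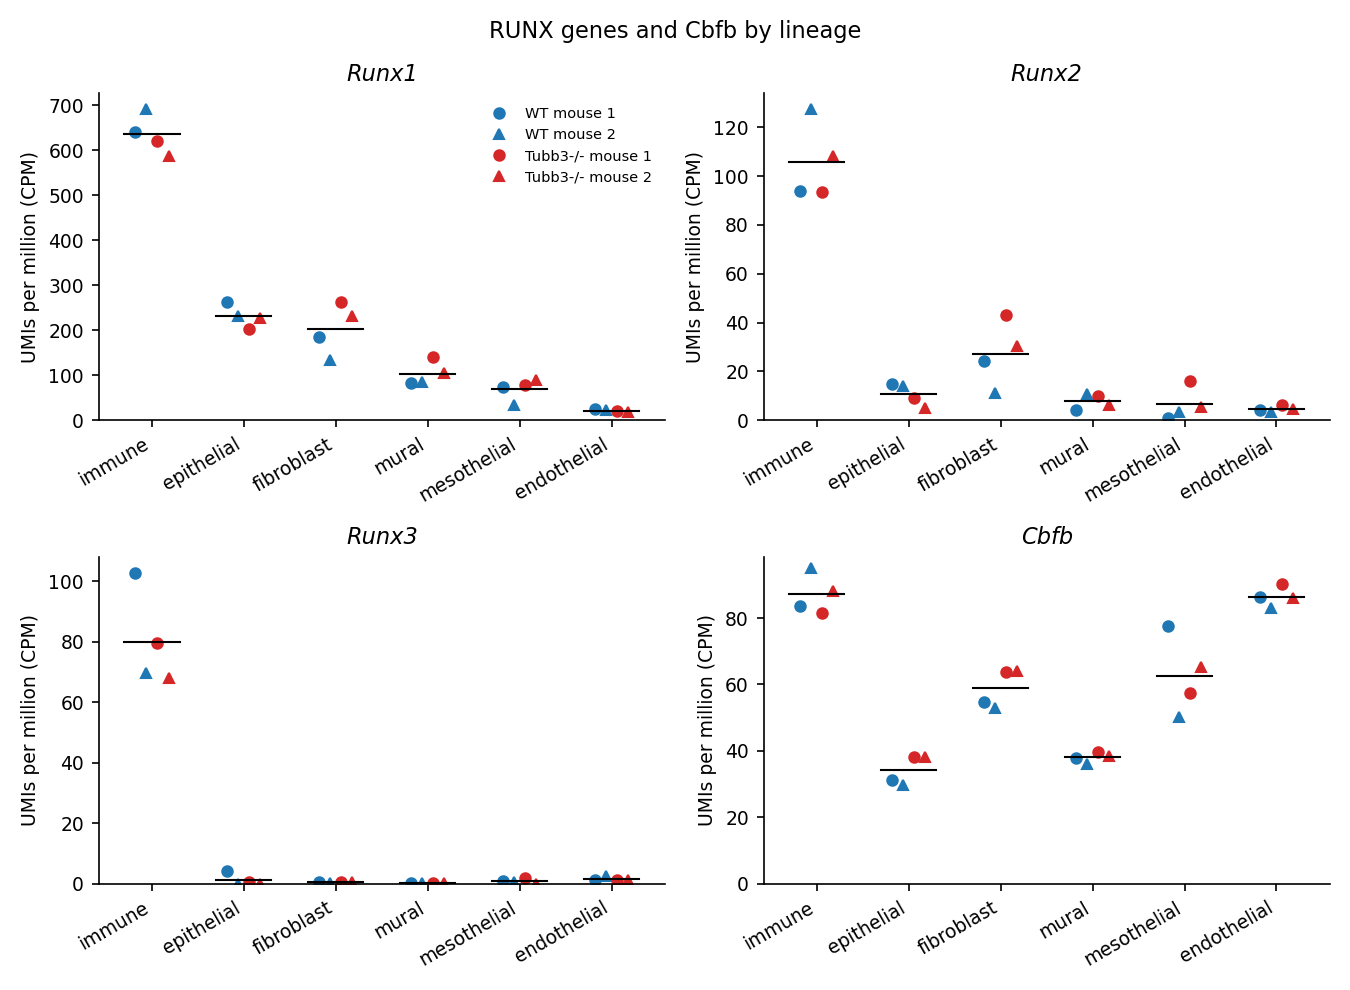
Levels of Runx1, Runx2, Runx3 and Cbfb in 6 lineages. The y axis is CPM of the sum of a mouse, each point is a mouse (blue WT, red Tubb3-/-, circles mouse 1, triangles mouse 2) and the line is the mean of 4 mice. All 4 immune values of each Runx gene lie above every other lineage, whereas Cbfb lies at 29.9 to 38.2 CPM in epithelial cells, the lowest by mean, and at 81.7 to 95.1 CPM in immune cells.

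Runx1 in immune cells stood at 641 and 692 CPM in WT mice 1 and 2 and 622 and 586 CPM in Tubb3-/- mice 1 and 2. Its log2 fold change against the other 5 lineages was 2.96 ± 0.13 (SE), with an adjusted p of 2.31e-15 from edgeR. In epithelial cells it stood at 263 and 232 CPM in WT mice 1 and 2 and 203 and 227 CPM in Tubb3-/- mice 1 and 2, and in fibroblasts at 185 and 134 CPM in WT mice 1 and 2 and 263 and 231 CPM in Tubb3-/- mice 1 and 2. These neighbours in the order of levels overlapped, and both were called above the mean of the other 5, by 0.97 ± 0.15 (SE) and 0.95 ± 0.14 (SE) on the log2 scale (edgeR adjusted p 8.50e-06 and 4.56e-06). The share of all genes called in these contrasts was 57.3% for epithelial cells and 58.3% for fibroblasts. Mural cells followed at 83.2 to 141 CPM and mesothelial cells at 33.8 to 89.1 CPM, with overlap between the 2 and between mural cells and fibroblasts. Endothelial cells held the least, 25.9 and 21.9 CPM in WT mice 1 and 2 and 19.7 and 18.7 CPM in Tubb3-/- mice 1 and 2, with no overlap with any other lineage. Their log2 fold change against the other 5 was -3.27 ± 0.20 (SE) (edgeR adjusted p = 3.53e-12), in a contrast in which 60.9% of genes were called. The corresponding value in mesothelial cells was -1.29 ± 0.19 (SE) (edgeR adjusted p = 7.50e-06, with 41.3% of genes called).

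Runx2 was highest in immune cells at 93.8 and 128 CPM in WT mice 1 and 2 and 93.4 and 108 CPM in Tubb3-/- mice 1 and 2, where its log2 fold change was 3.72 ± 0.21 (SE) (edgeR adjusted p = 4.52e-13). Fibroblasts were second by mean at 24.1 and 11.1 CPM in WT mice 1 and 2 and 43.0 and 30.6 CPM in Tubb3-/- mice 1 and 2, below every immune value and overlapping with epithelial cells (5.04 to 14.9 CPM). They were above the mean of the other 5 lineages by 1.31 ± 0.24 (SE) on the log2 scale (edgeR adjusted p = 7.90e-05). The remaining lineages lay between 0.996 and 16.1 CPM, both ends of which came from mesothelial cells, and their ranges overlapped with each other. Runx2 was called lower in endothelial cells (log2 fold change -2.03 ± 0.38 (SE)), mesothelial cells (-1.51 ± 0.52 (SE)) and mural cells (-0.99 ± 0.30 (SE)), the last in a contrast with 59.4% of genes called. The mesothelial call was lost without WT mouse 1 (edgeR adjusted p = 0.148) or Tubb3-/- mouse 2 (0.0956), with whole-cell libraries alone (0.107) and with a gate of at least 10 Myh11 or 3 Higd1b UMIs for mural cells (0.0856). The mural call was lost without WT mouse 1 (0.0551, edgeR) and with whole-cell libraries alone (0.114).

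Runx3 stood at 103 and 69.8 CPM in WT mice 1 and 2 and 79.6 and 67.9 CPM in Tubb3-/- mice 1 and 2 in immune cells. No other lineage exceeded 4.06 CPM in any mouse, and the fibroblast sums held 31 Runx3 UMIs over 3785 cells. Since Runx3 entered the fit through its immune sums, no test of it in immune cells is given. With 4 to 31 UMIs in each of the other lineages, no order was read among them.

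Cbfb, the common partner, had its highest levels in immune and endothelial cells. Immune cells (87.2 ± 5.98 CPM (SD, n = 4 mice)) and endothelial cells (86.3 ± 2.99 CPM (SD, n = 4 mice)) overlapped and were both called higher than the mean of the other 5, by 0.89 ± 0.07 (SE) and 0.55 ± 0.07 (SE) on the log2 scale (edgeR adjusted p 1.05e-10 and 9.96e-07). Mesothelial cells (50.1 to 77.6 CPM) and fibroblasts (52.9 to 64.1 CPM) came next, and mural cells (36.1 to 39.8 CPM) and epithelial cells (29.9 to 38.2 CPM) held the least, with a log2 fold change of -0.97 ± 0.10 (SE) in the latter. The small difference in fibroblasts (0.21 ± 0.07 (SE), edgeR adjusted p = 0.0165) was lost with DESeq2 (adjusted p = 0.0764), with RLE normalization (0.116), with a gate of 2 UMIs (0.125), with whole-cell libraries alone (log2 fold change 0.03 ± 0.11 (SE), adjusted p = 0.855) and without either Tubb3-/- mouse (0.129 without mouse 1, 0.19 without mouse 2). By mean over mice, endothelial cells thus held the lowest Runx1 and Runx2 and the second highest Cbfb.

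Within immune cells the 3 Runx genes were spread differently over cell types, which were gated by Cd3e (T cells), Cd79a (B cells), Ncr1 (NK cells), Cxcr2 (neutrophils) and Adgre1 with or without Siglecf (macrophages). NK cells held the most Runx1, 1222 and 1374 CPM in WT mice 1 and 2 and 1209 and 1338 CPM in Tubb3-/- mice 1 and 2, above every value of the other gates, on 25 cells in the smallest sum. They also held the most Runx3 by mean, 319.7 and 202 CPM in WT mice 1 and 2 and 299 and 249 CPM in Tubb3-/- mice 1 and 2. Runx2 had its highest mean in neutrophils, phagocytes of the innate response, but the 4 mice ranged over 123 to 262 CPM and overlapped with Cd4 T cells, NK cells and both macrophage gates. B cells held the least Runx2, 13.8 to 27.4 CPM. Macrophages with Siglecf, which marks alveolar macrophages, held 2.34 to 22.3 CPM of Runx3, and those without it 70.5 to 98.5 CPM, with no overlap. In the macrophages with Siglecf, Runx1 stood at 781 and 822 CPM in WT mice 1 and 2 and 561 and 486 CPM in Tubb3-/- mice 1 and 2, and the genotypes were not tested there. In the sums of all immune cells 40.6% of all genes did not overlap between genotypes, and the share in this gate was not computed. Cbfb ranged from 34.7 CPM, in neutrophils, to 142 CPM, in NK cells. Levels of these gates are descriptions, and the share of all genes that separate them likewise was not computed.

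**Figure D2:**
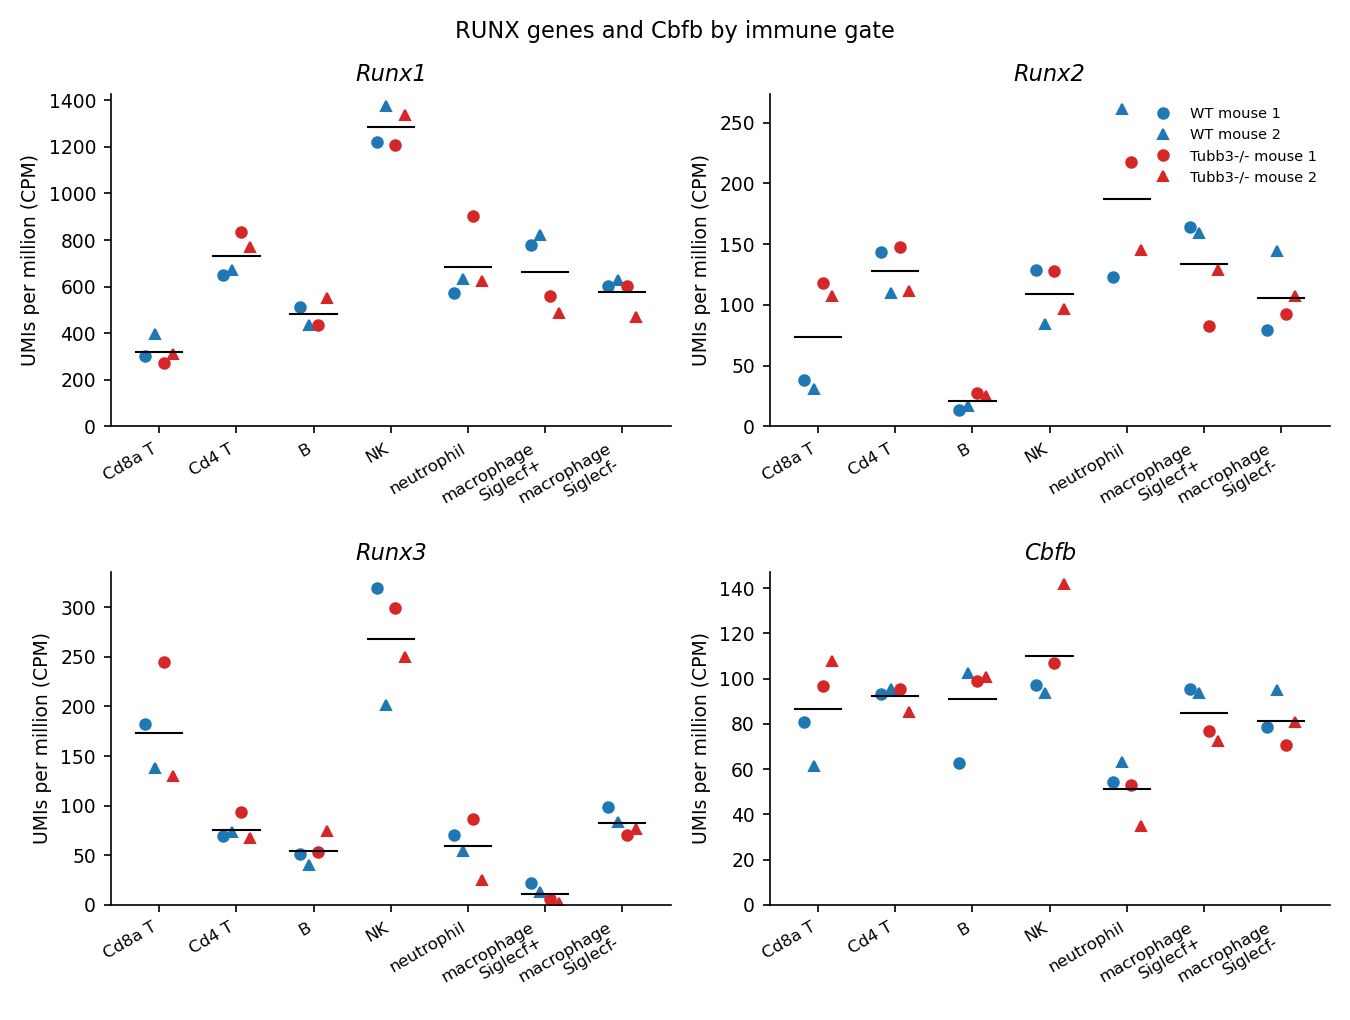
Levels of the 4 genes in 7 gates within immune cells. The y axis is CPM, each point is a mouse (blue WT, red Tubb3-/-) and the line is the mean of 4 mice. NK cells lie highest for Runx1, and Cd8a T cells lie above Cd4 T cells for Runx3 and below them for Runx1 in every mouse.

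Runx3 and Runx1 divide between the arms of the T cell lineage in textbook accounts, Runx3 with the Cd8a arm that kills infected cells and Runx1 with repression of Cd4 in precursors. T cells with Cd8a and no Cd4 UMI (131 cells) were compared with those with Cd4 and no Cd8a UMI (452 cells) within each mouse. Runx3 stood at 183 and 138 CPM in WT mice 1 and 2 and 245 and 129.9 CPM in Tubb3-/- mice 1 and 2 in Cd8a cells. In Cd4 cells it stood at 69.3 and 74.0 CPM in WT mice 1 and 2 and 93.2 and 67.6 CPM in Tubb3-/- mice 1 and 2, and was lower in 4 of 4 mice. The log2 fold change was 1.32 ± 0.17 (SE) (edgeR adjusted p = 9.36e-04). Runx1 went the other way, with 301 and 398 CPM in WT mice 1 and 2 and 272 and 312 CPM in Tubb3-/- mice 1 and 2 in Cd8a cells and 652 and 671 CPM in WT mice 1 and 2 and 835 and 769.8 CPM in Tubb3-/- mice 1 and 2 in Cd4 cells, a log2 fold change of -1.07 ± 0.17 (SE) (edgeR adjusted p = 0.00264). These 2 of 4 members were called, against 9.32% of the 6385 genes tested. Runx2 differed by -0.76 ± 0.30 (SE) without passing the threshold (edgeR adjusted p = 0.159), and Cbfb differed by 0.04 ± 0.19 (SE). Summed NK cell markers (Ncr1, Klrb1c and Gzma) stood at 297 to 640.3 CPM in the Cd8a gate and 9.50 to 93.9 CPM in the Cd4 gate, and their part in the result was not tested.

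Epithelial cells were few, at 72 to 87 per mouse. Their ciliated cells (Foxj1, 54 cells in all) held 420.2 and 522 CPM in WT mice 1 and 2 and 402 and 539 CPM in Tubb3-/- mice 1 and 2 of Runx1. Alveolar type 1 cells (Rtkn2, 59 cells), which form the gas exchange surface, held 223 and 191 CPM in WT mice 1 and 2 and 138 and 119.6 CPM in Tubb3-/- mice 1 and 2, and alveolar type 2 cells (Lamp3, 93 cells), which make surfactant, held 234 and 174 CPM in WT mice 1 and 2 and 130.4 and 127 CPM in Tubb3-/- mice 1 and 2. Every ciliated value lay above every alveolar value, but these gates were not tested against each other. The share of all genes that separate them in this way was not computed. Runx2 in type 1 cells stood at 84.5 and 63.7 CPM in WT mice 1 and 2 and 17.2 and 10.4 CPM in Tubb3-/- mice 1 and 2 on 37 UMIs in all. The genotypes were not tested in these gates. In the sums of all epithelial cells 34.2% of genes did not overlap between genotypes, and the share in these smaller gates was not computed. Runx3 had 0 UMIs in type 1 and ciliated cells, which allows up to 3.50 and 3.14 CPM over all cells of the gate.

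Fibroblasts with Cthrc1 held more Runx1 and Runx2 than fibroblasts without it, in every mouse. Pdgfra cells with at least 1 Cthrc1 UMI numbered 957 of 3785. Their share was 21.0% and 17.4% in WT mice 1 and 2 and 32.0% and 29.0% in Tubb3-/- mice 1 and 2. Cells of Tubb3-/- mice were also deeper, as given below, and the part of depth in this share was not tested. Runx1 stood at 254 and 209 CPM in WT mice 1 and 2 and 345 and 311 CPM in Tubb3-/- mice 1 and 2 with Cthrc1. Without Cthrc1 it stood at 163 and 117 CPM in WT mice 1 and 2 and 217 and 191 CPM in Tubb3-/- mice 1 and 2, so that the groups overlapped across genotypes but not within either genotype. The log2 fold change within mice was 0.76 ± 0.05 (SE) (edgeR adjusted p = 3.56e-05). Runx2 stood at 39.2 and 14.6 CPM in WT mice 1 and 2 and 63.4 and 48.6 CPM in Tubb3-/- mice 1 and 2 with Cthrc1 and at 19.3 and 10.3 CPM in WT mice 1 and 2 and 31.7 and 21.7 CPM in Tubb3-/- mice 1 and 2 without it, a log2 fold change of 1.05 ± 0.10 (SE) (edgeR adjusted p = 1.54e-04). The 2 called members stood among 13477 genes tested of which 11.9% were called. Cbfb, at 50.8 to 68.3 CPM with and 53.3 to 62.0 CPM without Cthrc1, had a log2 fold change of 0.08 ± 0.07 (SE) and did not pass (edgeR adjusted p = 0.553). Runx3, with 3 UMIs in the cells with Cthrc1, was not tested.

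The cells with Cthrc1 were also deeper, with a median of 14946 to 20990.0 UMIs per cell against 14653 to 18402. With Cthrc1 the median was 17909.5 and 14946 in WT mice 1 and 2 and 20990 and 20716 in Tubb3-/- mice 1 and 2. Without it the median was 15859 and 14653 in WT mice 1 and 2 and 18402 and 17243 in Tubb3-/- mice 1 and 2. When each cell was first thinned to 3000 UMIs, so that depth was equal, 64 to 150 cells per mouse still held a Cthrc1 UMI, and 8 to 18 shallower cells per mouse were left out. The log2 fold changes were 0.79 ± 0.12 (SE) for Runx1 and 1.24 ± 0.23 (SE) for Runx2, both called (edgeR adjusted p 2.96e-05 and 5.32e-04). Cbfb moved to 0.44 ± 0.19 (SE) there (adjusted p = 0.195). By Cthrc1 count, the mean of Runx1 was 172 ± 43.1 CPM (SD, n = 4 mice) in cells with none, 210.2 ± 57.4 CPM (SD, n = 4 mice) with 1 UMI, 253 ± 29.0 CPM (SD, n = 4 mice) with 2 to 3 and 414 ± 35.7 CPM (SD, n = 4 mice) with 4 or more. In the last bin the genotypes overlapped, at 452 and 366 CPM in WT mice 1 and 2 and 421 and 417 CPM in Tubb3-/- mice 1 and 2. Runx2 in the last bin stood at 102 and 24.2 CPM in WT mice 1 and 2 and 78.3 and 69.1 CPM in Tubb3-/- mice 1 and 2, with WT mouse 2, on 19 cells, far below the other mice. Median depth was 14653 to 18402, 13868 to 19386, 15370.5 to 20510.0 and 21236 to 24741 UMIs per cell over the 4 bins.

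**Figure D3:**
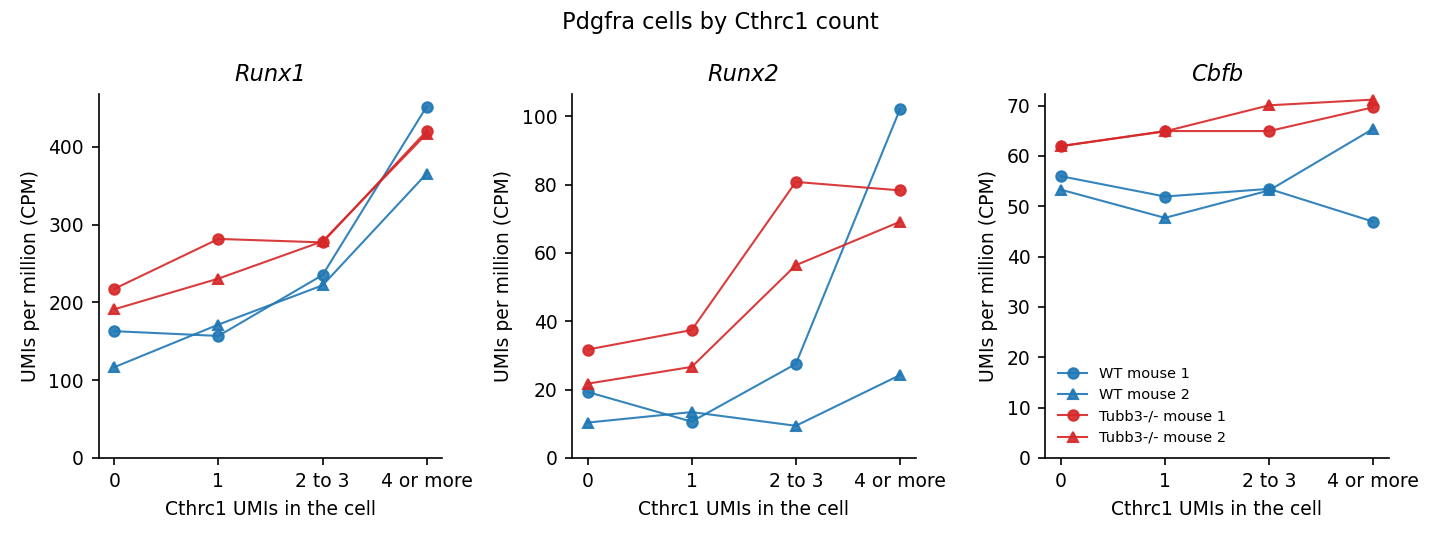
Runx1, Runx2 and Cbfb in Pdgfra cells by the number of Cthrc1 UMIs in the cell (x axis). The y axis is CPM of the sum of a mouse, and each line joins the values of 1 mouse (blue WT, red Tubb3-/-). Runx1 reaches 366 to 452 CPM in the bin with 4 or more UMIs from 117 to 217 CPM in the bin with none, and Cbfb stays between 46.9 and 71.2 CPM in the last bin.

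Genes of the RUNX pathway were taken from 3 lists and read in the same comparison, without a test of the lists. Of 14 tested RUNX2 targets of bone and matrix, 7 were called higher and 2 lower with Cthrc1 (64.3%, against 11.9% of all genes, with a median log2 fold change of 0.34 against -0.01). Postn, a matricellular protein, stood at 130.1 to 322 CPM with Cthrc1 against 19.3 to 40.1 CPM without (log2 fold change 2.81 ± 0.08 (SE), edgeR adjusted p = 1.30e-07). Spp1, osteopontin, stood at 138 to 4607 CPM with Cthrc1 against 95.9 to 868 CPM without (1.96 ± 0.28 (SE), edgeR adjusted p = 0.00164), and the collagen genes Col1a1 (0.85) and Col1a2 (0.57) were higher as well. Postn, Col1a1 and Col1a2 also mark fibrotic fibroblasts in general. Alpl, alkaline phosphatase (-0.57), and Phex, a mineralization peptidase (-0.82), were called lower. Of 41 tested cofactors, 3 were called higher and 5 lower (19.5%, against 11.9% of all genes, median -0.03). The co-repressor Tle1 (0.39) and the ETS factor Erg (0.50) were higher, and the co-repressor Cbfa2t3 (-0.82), the acetyltransferase Ep300 (-0.36), Smad3 of the TGF-β pathway (-0.31) and Ets1 (-0.28) were lower. Twist1, an inhibitor of RUNX2, was the third called higher (1.69), at 4.23 to 16.5 CPM with Cthrc1 against 2.26 to 5.65 CPM without, and Cebpb the fifth called lower (-0.18). These last 2 fell outside the naming rule and were chosen after their values were seen. Of 11 tested RUNX1 and RUNX3 targets of blood cells, the B cell factor Ebf1 (0.41) was the 1 called (9.09%). Between lineages, 25 of 26 tested blood targets were called higher in immune cells and 1 lower, where 75.1% of all genes were called (median log2 fold change 5.87 against -0.04). Only 13 of the list passed the filter between genotypes in fibroblasts and 4 in mesothelial cells. Many thus entered the lineage fit through the immune sums, as Runx3 did, and the count is a description. In fibroblasts 11 of 18 tested bone targets were called higher and 1 lower, which is 66.7% against 58.3% of all genes (median 1.71 against 0.01).

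The mural gate takes in cells with Higd1b and cells with Myh11, the smooth muscle myosin. The level of Runx1 there changed with how many UMIs of these 2 genes were asked for. At 1 or more UMIs of either gate gene, Runx1 stood at 83.2 and 85.8 CPM in WT mice 1 and 2 and 141 and 105 CPM in Tubb3-/- mice 1 and 2, and summed fibroblast markers at 1849.6 and 1500.3 CPM in WT mice 1 and 2 and 3151 and 2694 CPM in Tubb3-/- mice 1 and 2. A firmer gate of at least 10 Myh11 or 3 Higd1b UMIs, chosen after seeing the data, left 3333 of 4505 cells. Runx1 in these stood at 51.5 and 57.6 CPM in WT mice 1 and 2 and 77.9 and 69.1 CPM in Tubb3-/- mice 1 and 2, and its log2 fold change against the other 5 lineages moved from -0.31 ± 0.15 (SE) (edgeR adjusted p = 0.0915) to -0.98 ± 0.16 (SE) (adjusted p = 1.03e-05). Without Tubb3-/- mouse 1 it was called in the wider gate too (adjusted p = 0.0237). Pericytes are marked by Higd1b. Only 42 cells held Higd1b without any Myh11 UMI, 5 to 16 per mouse, and red cell genes made up 56638 CPM of the sum of Tubb3-/- mouse 1. In that gate Runx2 was the 1 of 3 tested members called against smooth muscle (log2 fold change 2.69 ± 0.64 (SE), edgeR adjusted p = 4.46e-04), on 16 UMIs, with 15.1% of 11277 genes called, and the call was lost without WT mouse 2 (adjusted p = 0.326). With at least 3 Higd1b UMIs, whatever the Myh11 count, 307 cells were compared with 2935 cells of at least 10 Myh11 and no Higd1b UMIs. Runx1 then stood at 146 and 88.7 CPM in WT mice 1 and 2 and 115 and 145 CPM in Tubb3-/- mice 1 and 2 in the Higd1b cells. In the Myh11 cells it stood at 46.3 and 52.7 CPM in WT mice 1 and 2 and 74.1 and 57.3 CPM in Tubb3-/- mice 1 and 2, lower in 4 of 4 mice (log2 fold change of Higd1b over Myh11 cells 0.93 ± 0.16 (SE), edgeR adjusted p = 2.10e-04). Runx2 stood at 13.2 and 46.3 CPM in WT mice 1 and 2 and 9.24 and 4.37 CPM in Tubb3-/- mice 1 and 2 in the Higd1b cells, highest in WT mouse 2, and at 2.11 ± 0.505 CPM (SD, n = 4 mice) in the Myh11 cells (2.63 ± 0.43 (SE), adjusted p = 1.53e-04), and Cbfb differed by 0.42 ± 0.15 (SE) (0.0319). The 3 tested members were all called in a contrast that called 40.5% of genes. Runx3 had 0 UMIs in the Higd1b cells and 1 in the Myh11 cells.

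The study asked how the loss of Tubb3 changes the fibrotic lung, and the members were compared between genotypes in each lineage. Both Tubb3-/- values of Runx1 lay above both WT values in fibroblasts, mural cells and mesothelial cells, and below them in immune, endothelial and epithelial cells, as did those of 34.2% to 48.1% of all genes in either direction. No member was called in any lineage in the fit without a block. With the mouse number, which equals the sex, as a block, Runx1 and Runx2 were called in fibroblasts and Runx1 in mural cells. In fibroblasts that fit called 1571 of 14778 genes. Of 18 member and lineage pairs tested with edgeR's quasi-likelihood test on 2 against 2 mice, 0 had an adjusted p under 0.05 and 5 an unadjusted p under 0.05. DESeq2 called 0 as well. Runx3 was too low to test outside immune cells, and Runx2 in mesothelial cells. Among all genes edgeR called 0% in immune, 0% in endothelial, 0% in epithelial, 0% in mural and 0% in fibroblast sums and 0.231% in mesothelial sums. In the 5 lineages at 0%, 444 to 2678 genes had an unadjusted p under 0.05 in edgeR, and DESeq2 called 3 to 508. An exact permutation test of 2 against 2 mice cannot pass the threshold, since 2 of its 6 arrangements are as extreme as any result.

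**Figure D4:**
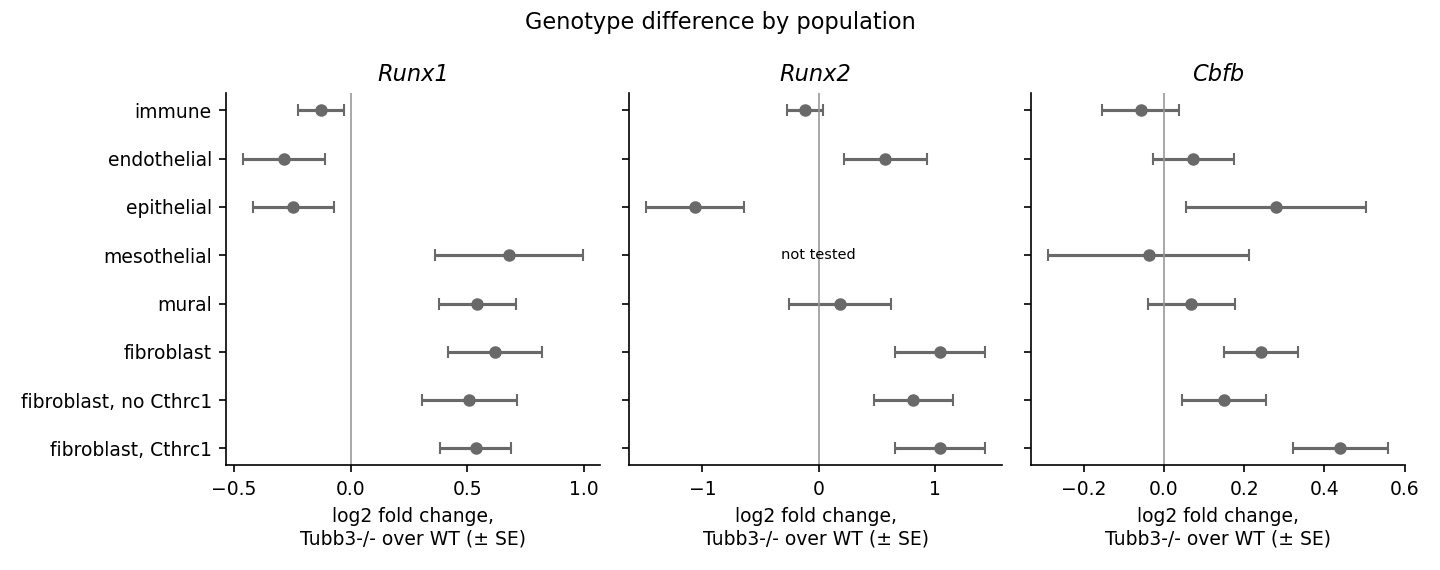
Log2 fold change of Runx1, Runx2 and Cbfb in Tubb3-/- over WT mice (x axis, points with SE as bars, edgeR, 2 mice per genotype) by lineage and in fibroblasts with and without Cthrc1 (y axis). Runx1 lies above 0 in mesothelial, mural and fibroblast sums and below 0 in immune, endothelial and epithelial sums, and none of the differences was called in this fit, which has no block.

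In fibroblasts the Runx1 values given above lie 0.62 ± 0.20 (SE) higher on the log2 scale in Tubb3-/- mice (edgeR adjusted p = 0.209). The Tubb3-/- mouse was higher than the WT mouse of the same sex in both sexes, and in the whole-cell and the mural cell-enriched library alike (178 and 136 against 255 and 239 CPM, and 188 and 133 against 268 and 226 CPM). Both libraries of a mouse come from the same animal, so that they are not separate replicates. Runx2 lay 1.04 ± 0.39 (SE) higher (adjusted p = 0.25) and Cbfb 0.24 ± 0.09 (SE) (adjusted p = 0.259). None of the 3 tested members overlapped between genotypes there, and 48.1% of all genes tested did not either. Without WT mouse 1 the differences were 0.93 ± 0.13 (SE) for Runx1 and 1.78 ± 0.24 (SE) for Runx2, in a fit that takes the lone WT mouse to vary like the Tubb3-/- mice. Without WT mouse 2 the differences fell to 0.38 ± 0.13 (SE) for Runx1 and 0.58 ± 0.21 (SE) for Runx2. With the mouse number as a block they were 0.64 ± 0.10 (SE) and 1.11 ± 0.16 (SE), both called (edgeR adjusted p 0.00558 and 0.0039), in a fit that called 1571 of 14778 genes. Summed immune markers in fibroblasts were 19.7 to 26.0 CPM. Summed markers of fibrotic fibroblasts were 5243 and 3902 CPM in WT mice 1 and 2 and 7121 and 7341 CPM in Tubb3-/- mice 1 and 2. Summed mural markers were 445 and 415 CPM in WT mice 1 and 2 and 760.4 and 593 CPM in Tubb3-/- mice 1 and 2, and their part in the difference was not tested.

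The larger share of cells with Cthrc1 in Tubb3-/- mice moves with these values, so the genotypes were also compared on either side of that gate. Among cells with Cthrc1, Runx1 differed by 0.54 ± 0.15 (SE), Runx2 by 1.04 ± 0.39 (SE) and Cbfb by 0.44 ± 0.12 (SE) on the log2 scale (edgeR adjusted p 0.221, 0.302 and 0.201). Among cells without it the values were 0.51 ± 0.20 (SE), 0.81 ± 0.34 (SE) and 0.15 ± 0.10 (SE) (adjusted p 0.302, 0.319 and 0.529). Of these 6 tests edgeR called 0, with 4 at an unadjusted p under 0.05, and DESeq2 called 0. EdgeR called 0.0328% and 0.0071% of all genes with and without Cthrc1. None of the 3 members overlapped between genotypes on either side, nor did 46.4% and 47.3% of all genes. Without WT mouse 1, which leaves 1 WT mouse, the difference of Runx2 was 2.01 with and 1.41 without Cthrc1. That of Runx1 without Cthrc1 was then 0.84. Without WT mouse 2 the difference of Runx2 was 0.53 ± 0.21 (SE) with and 0.41 ± 0.21 (SE) without Cthrc1, and that of Runx1 without Cthrc1 was 0.26 ± 0.13 (SE). With the mouse number as a block Runx1 (edgeR adjusted p 0.022 with and 0.0477 without Cthrc1) and Runx2 (0.0343 and 0.0286) were called on both sides. In cells without Cthrc1 that fit called 685 of 14091 genes. In cells with Cthrc1 the alternatives, the block among them, called 0 to 962 of all genes, and the main fit called 4. Whether the Cthrc1 difference depended on genotype was tested with an interaction term. It was 0.03 ± 0.10 (SE) for Runx1, 0.31 ± 0.18 for Runx2 and 0.31 ± 0.12 for Cbfb on the log2 scale (edgeR adjusted p 0.983, 0.816 and 0.715), and 0.00742% of genes were called.

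In mural cells Runx1 differed by 0.54 ± 0.17 (SE) (edgeR adjusted p = 0.321), and by 0.42 ± 0.11 (SE) with the firmer gate (adjusted p = 0.416). It was called with the mouse number as a block (0.53 ± 0.11 (SE), edgeR adjusted p = 0.0336) and with no filter on low counts (5.79e-04), and was 0.28 ± 0.13 (SE) without Tubb3-/- mouse 1. The mural fit with no filter called 850 genes in all, the most of any alternative, the block included, and the main fit called 0. Summed fibroblast markers in the wider gate were higher in both Tubb3-/- mice, as given above, and their part in the difference was not tested. In mesothelial cells Runx1 stood at 73.7 and 33.8 CPM in WT mice 1 and 2 and 77.9 and 89.1 CPM in Tubb3-/- mice 1 and 2, with WT mouse 2 lowest, and differed by 0.68 ± 0.32 (SE) (adjusted p = 0.627). Without WT mouse 1 this difference was 1.29 ± 0.32 (SE), without WT mouse 2 it was 0.19 ± 0.30 (SE), and with the whole-cell libraries alone it turned to -0.36 ± 0.52 (SE). In immune cells Runx1 differed by -0.13 ± 0.10 (SE), in endothelial cells by -0.28 ± 0.17 (SE) and in epithelial cells by -0.25 ± 0.17 (SE), with adjusted p of 0.752, 0.532 and 0.979 (edgeR). The endothelial difference turned to 0.59 ± 0.39 (SE) with the mural cell-enriched libraries alone, and the epithelial to 0.13 ± 0.25 (SE) with the whole-cell libraries alone. The genotypes did not overlap for Runx1 in any of the 6 lineages. Taken 1 lineage at a time, the genotypes did not overlap for 40.6% of all genes in immune, 44.9% in endothelial, 34.2% in epithelial, 37.6% in mesothelial and 40.9% in mural sums. The share of genes without overlap in all 6 lineages was not computed, and the sums of the 6 come from the same mice. Whether the genotype difference depended on the lineage was tested with 5 interaction terms over the 24 sums. Runx1 had an unadjusted p of 0.00494 and an adjusted p of 0.314 (edgeR, 0.0367% of genes called), and Runx2, Runx3 and Cbfb had adjusted p of 0.613, 0.885 and 0.892.

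Among the pathway lists, edgeR called 0 of 42 tested cofactors, 0 of 16 bone and matrix targets and 0 of 13 blood cell targets between genotypes in fibroblasts, with 10, 7 and 2 at an unadjusted p under 0.05, and DESeq2 called 1, 5 and 0. The median log2 fold change of the bone and matrix targets was 0.27, and that of all genes was -0.0046. In mesothelial cells 1 of 11 tested bone and matrix targets was called. Col1a2, a chain of collagen I, stood at 759 and 744 CPM in WT mice 1 and 2 and 1883 and 1459.6 CPM in Tubb3-/- mice 1 and 2 (log2 fold change 1.16 ± 0.17 (SE), edgeR adjusted p = 0.044).

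For each member the genes with the most similar pattern over the 24 sums were sought among the 9931 that reached a mean of 10 CPM, by Pearson's r of log2(CPM + 1). The points share mice and libraries, so these r are descriptions. They were Prdx5 (r = 0.947), Cisd2 (r = 0.927), Adcy7 (r = 0.914), Cstb (r = 0.912), Ctsc (r = 0.912) for Runx1, Nfkbie (r = 0.898), Ly86 (r = 0.893), Rnf149 (r = 0.89), Rnf166 (r = 0.886), Erp29 (r = 0.884) for Runx2, Spi1 (r = 0.982), Gpr171 (r = 0.98), Sirpb1c (r = 0.977), Ptpn22 (r = 0.976), Ptprcap (r = 0.976) for Runx3 and Crlf2 (r = 0.948), Vsir (r = 0.94), B2m (r = 0.939), Mndal (r = 0.935), Galnt10 (r = 0.924) for Cbfb. Spi1 encodes a transcription factor of myeloid and B cells. Runx3 reached a mean of 10 CPM through its immune sums (80.0 CPM by mean, against 1.58 CPM in endothelial cells, the next lineage). Its r values therefore mainly restate the split of immune from other cells. Between members, r was 0.817 for Runx1 and Runx2, 0.760 for Runx2 and Runx3 and 0.573 for Runx1 and Runx3. Cbfb had r of -0.0986 with Runx1, 0.275 with Runx2 and 0.558 with Runx3.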

How the data were processed

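Per the submitters' processing notes, the authors aligned reads with Cell Ranger 7.1.0 to mm10, and the deposited values are raw UMI counts per gene and cell (10x 3' chemistry), split by tag and not normalized. The setting for intronic reads and the use of strand are not given in the sources used here. Tag counts in the same files were set aside. Cells of 200 to 7500 genes whose mitochondrial UMIs made up 15% or less were kept, and 638 doublets in the mural cell-enriched and 139 in the whole-cell pool, called by Scrublet (scanpy 1.11.5) were removed. The mouse of a library comes from the tag assignment per the labels. UMIs were summed per mouse and gate over both libraries, at 1004521 to 21197453 UMIs per sum of a lineage, and CPM is the count over that total. Sums were tested with edgeR 4.0.16 (filterByExpr, TMM, glmQLFTest) with p-values adjusted by Benjamini-Hochberg across every gene in the fit (called: under 0.05). The SE is the log2 fold change over the square root of F. Where 0 counts were found, the limit is 3 UMIs, for counting error only. The tests were tried on simulated data.

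The members and lists were chosen with earlier results of these data known. Named list genes are those called in a genotype or Cthrc1 comparison with a mean of at least 10 CPM, at most 6 per list by size of the log2 fold change, and the 5 genes most alike each member are named. The 3 lists held 45 cofactors (44 in the files), 26 RUNX2 targets of bone and matrix and 30 RUNX1 and RUNX3 targets of blood cells. The mice are separate animals. Alternatives tried were DESeq2, RLE normalization, no filter on low counts, a gate of 2 UMIs, cells of several gates given to the highest, doublets kept, a mitochondrial limit of 10%, either kind of library alone, each mouse left out, at least 3 Cthrc1 UMIs against none, cells thinned to 3000 UMIs, and the replicate number as a block. A firmer mural gate was added after the data were seen.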

Additional observations from a re-analysis of the deposited data

Results flagged for a closer look

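Over the 4 mice of each of 11 lineages and gates, the gap of the most distant mouse to the others was set against the range. The members gave 40 such sets with at least 12 UMIs, and 1 passed Dixon's 95% critical value, where chance alone would pass about 1 in 20. Runx3 in endothelial cells of WT mouse 2 stood at 2.51 CPM, against 1.15 to 1.34 CPM in the other 3 mice, on 29 UMIs over the 4 mice.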

How the results depend on the processing

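Of 775 refits of a member's log2 fold change, 699 kept their direction and their side of the threshold, 26 were newly called, 13 lost their call and 37 changed sign. The Cthrc1 difference of Runx1 and Runx2 was called in all 15 alternatives run (log2 fold changes 0.64 to 1.31 and 0.92 to 1.75). The 18 called member and lineage pairs became 16 to 20, in contrasts whose main fits called 41.3% to 75.1% of all genes. These pairs include those of Runx3, which entered the fit through its immune sums, so that the count says nothing about Runx3. The 2 members called between Cd8a and Cd4 T cells became 2 to 3. Between Higd1b and Myh11 cells 1 member was called, against 3 with the firmer mural gate, chosen after seeing the data, 0 with whole-cell libraries alone, where Runx2 was too low to test, and 0 to 1 with 1 mouse left out.

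The genotype comparison depended on the model and on 1 mouse. Over the 6 lineages 0 members were called, against 1 with no filter on low counts. In Pdgfra cells with and without Cthrc1 there were 0, against 2 with no filter. With 1 mouse left out, which leaves 1 mouse of a genotype, the fibroblast difference ranged over 0.38 to 0.93 for Runx1. For Runx2 it ranged over 0.58 to 1.78 on the log2 scale. With the replicate number as a block, 3 were called over the lineages (Runx1 in fibroblasts, log2 fold change 0.64 ± 0.10 (SE), edgeR adjusted p = 0.00558, Runx2 in fibroblasts, 0.0039, and Runx1 in mural cells, 0.0336) and 4 in the Cthrc1 gates (Runx1 and Runx2 on both sides). The block fit also called 1571 of all genes in fibroblasts and 685 in those without Cthrc1, against 0 and 1 without a block. Mouse number equals sex here, so that the block is also one for sex. No label pairs the mice beyond their number. Same-numbered mice's deviations from the genotype means correlated by 0.0731 to 0.383 across genes. The cause of these changes was not tested.

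The number of all genes called by genotype ranged over alternatives over 0 to 455 in immune, 0 to 895 in endothelial, 0 to 162 in epithelial, 0 to 344 in mesothelial, 0 to 850 in mural and 0 to 1571 in fibroblast sums, 0 to 962 with and 0 to 1022 without Cthrc1. It ranged over 699 to 3128 between cells with and without Cthrc1, 486 to 4604 between Higd1b and Myh11 cells, 284 to 993 between Cd8a and Cd4 T cells, 3668 to 9540 for mesothelial and 5719 to 11200 for mural cells against the other lineages.

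Log2 fold changes that changed sign with 1 mouse left out ranged as follows: Cbfb (Cd8a against Cd4) -0.083 to 0.15, Cbfb (genotype, immune) -0.13 to 0.011, Cbfb (genotype, mesothelial) -0.33 to 0.28, Cbfb (genotype, mural) -0.018 to 0.17, Cbfb (lineages, mesothelial) -0.10 to 0.024, Runx1 (Higd1b against Myh11) -0.059 to 0.45, Runx2 (genotype, immune) -0.30 to 0.093, Runx2 (genotype, mural) -0.37 to 0.91, Runx3 (genotype, immune) -0.49 to 0.12, Runx3 (lineages, endothelial) -0.49 to 0.31. The other sign changes were Cbfb (Cd8a against Cd4) -0.061 with no filter on low counts, Cbfb (genotype, mesothelial) 0.012 with cells of several gates kept, 0.013 with mitochondrial limit of 10%, 0.079 with mural cell-enriched libraries only, Cbfb (genotype, mural) -0.047 with firm mural gate, Cbfb (lineages, mesothelial) 0.019 with DESeq2, 0.024 with RLE normalization, 0.002 with gate of 2 UMIs, 0.0096 with cells of several gates kept, 0.0012 with firm mural gate, Runx1 (Higd1b against Myh11) -0.19 with gate of 2 UMIs, -0.21 with cells of several gates kept, -0.45 with whole-cell libraries only, Runx1 (genotype, endothelial) 0.59 with mural cell-enriched libraries only, Runx1 (genotype, epithelial) 0.13 with whole-cell libraries only, Runx1 (genotype, mesothelial) -0.36 with whole-cell libraries only, Runx2 (genotype, mural) -0.34 with gate of 2 UMIs, -0.93 with firm mural gate, Runx3 (lineages, endothelial) 0.28 with gate of 2 UMIs, 0.24 with firm mural gate, Runx3 (lineages, epithelial) 2.13 with cells of several gates kept. Runx3 entered the lineage fits through its immune sums, so that no call is read from its sign changes, the epithelial one with cells of several gates kept included. Lineage contrasts with mural cell-enriched libraries alone were not possible for want of cells. Depth limits the epithelial and mesothelial sums most.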
